A study of Mus musculus with 25 samples.

Results

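Transcripts of 9 kallikrein-related peptidases and of the inhibitor SPINK5 were followed in the esophagus of mice with an activated NRF2 pathway. The members were the rows with the symbols Klk5, Klk6, Klk7, Klk8, Klk9, Klk10, Klk11, Klk13, Klk14 and Spink5, 10 genes of the 21954 listed in at least 1 of the deposited tables. All 10 were listed in both tables, and all 10 passed the filter on low values in both. Whole-esophagus RNA was sequenced in 2 experiments, and the labels give 7 groups with 25 libraries. NRF2 (gene Nfe2l2) activates genes of antioxidant defence and detoxification, and KEAP1 hands NRF2 to the machinery that degrades it. The L30F knock-in carries phenylalanine in place of leucine at codon 30 of NRF2, a change taken from human cancer. In pups aged 7 to 10 days, Wild-Type, NRF2L30F/L30F::K5Cre (L30F homozygotes) and KEAP1flox/flox::K5Cre (KEAP1-deficient) mice gave 3 libraries each. In adults aged 6 to 9 weeks, Wild-Type, NRF2L30F/+::K5CreERT2 (heterozygotes), NRF2L30F/L30F::K5CreERT2 (homozygotes) and KEAP1flox/flox::K5CreERT2 (KEAP1-deficient) mice gave 4 libraries each. All adult groups were sampled 1 week after tamoxifen at 100 µg/g body weight. The genotype label of the wild type names no Cre, but its sample titles name K5Cre in pups and K5CreERT2 in adults. Whether the wild type carried Cre is therefore not clear from the labels. The keratin 5 promoter drives Cre in squamous cells, so the alleles are meant to be recombined there and not in the muscle and connective tissue. Recombination by cell type was not measured here. No label names the animal behind a library, so the p-values reflect the spread among libraries, which may be technical.

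Kallikrein-related peptidases are secreted serine proteases that stratified squamous epithelium makes as inactive precursors in its upper layers and activates between the cells. In the epidermis KLK5, KLK7 and KLK14 cut the corneodesmosomes, the junctions that hold cornified cells together, and so control shedding. KLK5 can activate itself and other kallikreins. SPINK5 encodes LEKTI, a Kazal-type inhibitor of several domains that blocks KLK5, KLK7 and KLK14, and its loss causes Netherton syndrome, in which the outer layer of the skin detaches. KLK6, KLK8, KLK9, KLK10, KLK11 and KLK13 are made by squamous epithelia as well. KLK8 is also known as neuropsin from the brain, and KLK6 as a protease of the nervous system and of tumours.

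The 9 kallikrein genes lie beside each other on chromosome 7, in the order Klk14, Klk13, Klk11, Klk10, Klk9, Klk8, Klk7, Klk6 and Klk5, with the non-member Klk12 between Klk13 and Klk11. Spink5 lies on another chromosome. The upstream sequences of Klk14, Klk9 and Klk7 are shown because these 3 genes of 1 cluster all rose in pups but had unlike calls in adults. Each is the 250 bases before the annotated transcription start, from RefSeq on GRCm38.p6, plus strand, 5′ to 3′, with the 30 bases next to the start in capitals. None of these windows holds an exon of the GENCODE annotation of the same build. The deposited tables were made on GRCm39, so these coordinates are RefSeq's and not the authors'.
Klk14 chr7:43690168-43690417: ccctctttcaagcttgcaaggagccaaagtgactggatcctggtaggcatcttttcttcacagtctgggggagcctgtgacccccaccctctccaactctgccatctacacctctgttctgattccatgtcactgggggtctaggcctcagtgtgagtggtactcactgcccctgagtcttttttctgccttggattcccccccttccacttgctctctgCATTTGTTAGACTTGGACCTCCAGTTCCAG
Klk9 chr7:43791641-43791890: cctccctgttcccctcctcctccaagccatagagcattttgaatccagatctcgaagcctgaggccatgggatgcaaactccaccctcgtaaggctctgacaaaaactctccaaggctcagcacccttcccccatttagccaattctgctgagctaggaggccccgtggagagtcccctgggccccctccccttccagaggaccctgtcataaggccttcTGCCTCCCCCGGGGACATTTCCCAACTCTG
Klk7 chr7:43811044-43811293: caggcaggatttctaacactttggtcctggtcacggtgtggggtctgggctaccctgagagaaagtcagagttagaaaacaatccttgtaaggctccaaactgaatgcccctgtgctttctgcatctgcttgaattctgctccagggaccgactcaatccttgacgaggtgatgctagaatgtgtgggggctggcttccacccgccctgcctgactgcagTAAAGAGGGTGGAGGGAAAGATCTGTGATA
The RefSeq table matched 9 of the 10 members, with 11 annotated starts. The 250 bases before each start were searched on both strands for TGACNNNGC, the core of the antioxidant response element that NRF2 binds, and for TGANTCA, the AP-1 site, and the 2 patterns can overlap. Neither pattern was found in any of the 11 member windows. Over all 32851 annotated starts, 10.2% of the windows held the first and 6.75% the second. At such shares 11 windows can lack both by chance, and sequence farther from the starts was not searched.

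Values are normalised read counts, and a fold change is a difference of means of log2(count + 1), which understates the change of low genes. The 2 experiments were normalised separately, so effects and not levels are set side by side between ages. A gene is called when the adjusted p-value of limma is under 0.05 (Benjamini-Hochberg over all genes tested). Pup libraries held 18791974 to 19650133 reads. Adult depth differed by genotype, from 10867765 to 11643385 reads in homozygotes to 27529872 to 32281399 in wild type. Nqo1, a standard NRF2 target, was called higher in all 5 mutant groups, by 7.01 and 7.28 (log2) in homozygous and KEAP1-deficient pups and by 1.95, 2.51 and 2.45 in adult heterozygotes, homozygotes and KEAP1-deficient mice. Keap1 was lower in KEAP1-deficient pups (-0.46, adjusted p = 0.012) and adults (-0.60, adjusted p = 8e-06). Nfe2l2 itself was lower in adult heterozygotes (-0.67, adjusted p = 0.0028), homozygotes (-1.98, adjusted p = 1.2e-08) and KEAP1-deficient mice (-0.39, adjusted p = 0.011). In pups it was higher with KEAP1 deficiency (0.93, adjusted p = 0.0013) and not called in homozygotes (0.31, adjusted p = 0.17). Markers of squamous cells were present in every library, beside those of muscle, fibroblasts, endothelium and leukocytes. In these bulk samples, fewer cells of a type and less RNA per cell cannot be told apart. Salivary and mucous glands also make kallikreins, and 3 libraries stood apart in markers of such neighbouring tissue. Pup homozygote library 1 had summed counts of 32443 for 4 thyroid markers and 5083 for the 4 listed of 8 gland markers, pup KEAP1-deficient library 2 had 6100.1 for stomach markers, and adult heterozygote library 3 had 7850.1 for gland markers. The wild-type pups had 489 to 2125 for the gland markers. Without any 1 of these 3 libraries the number of members called against wild type was the same in each comparison.

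**Figure D1:**
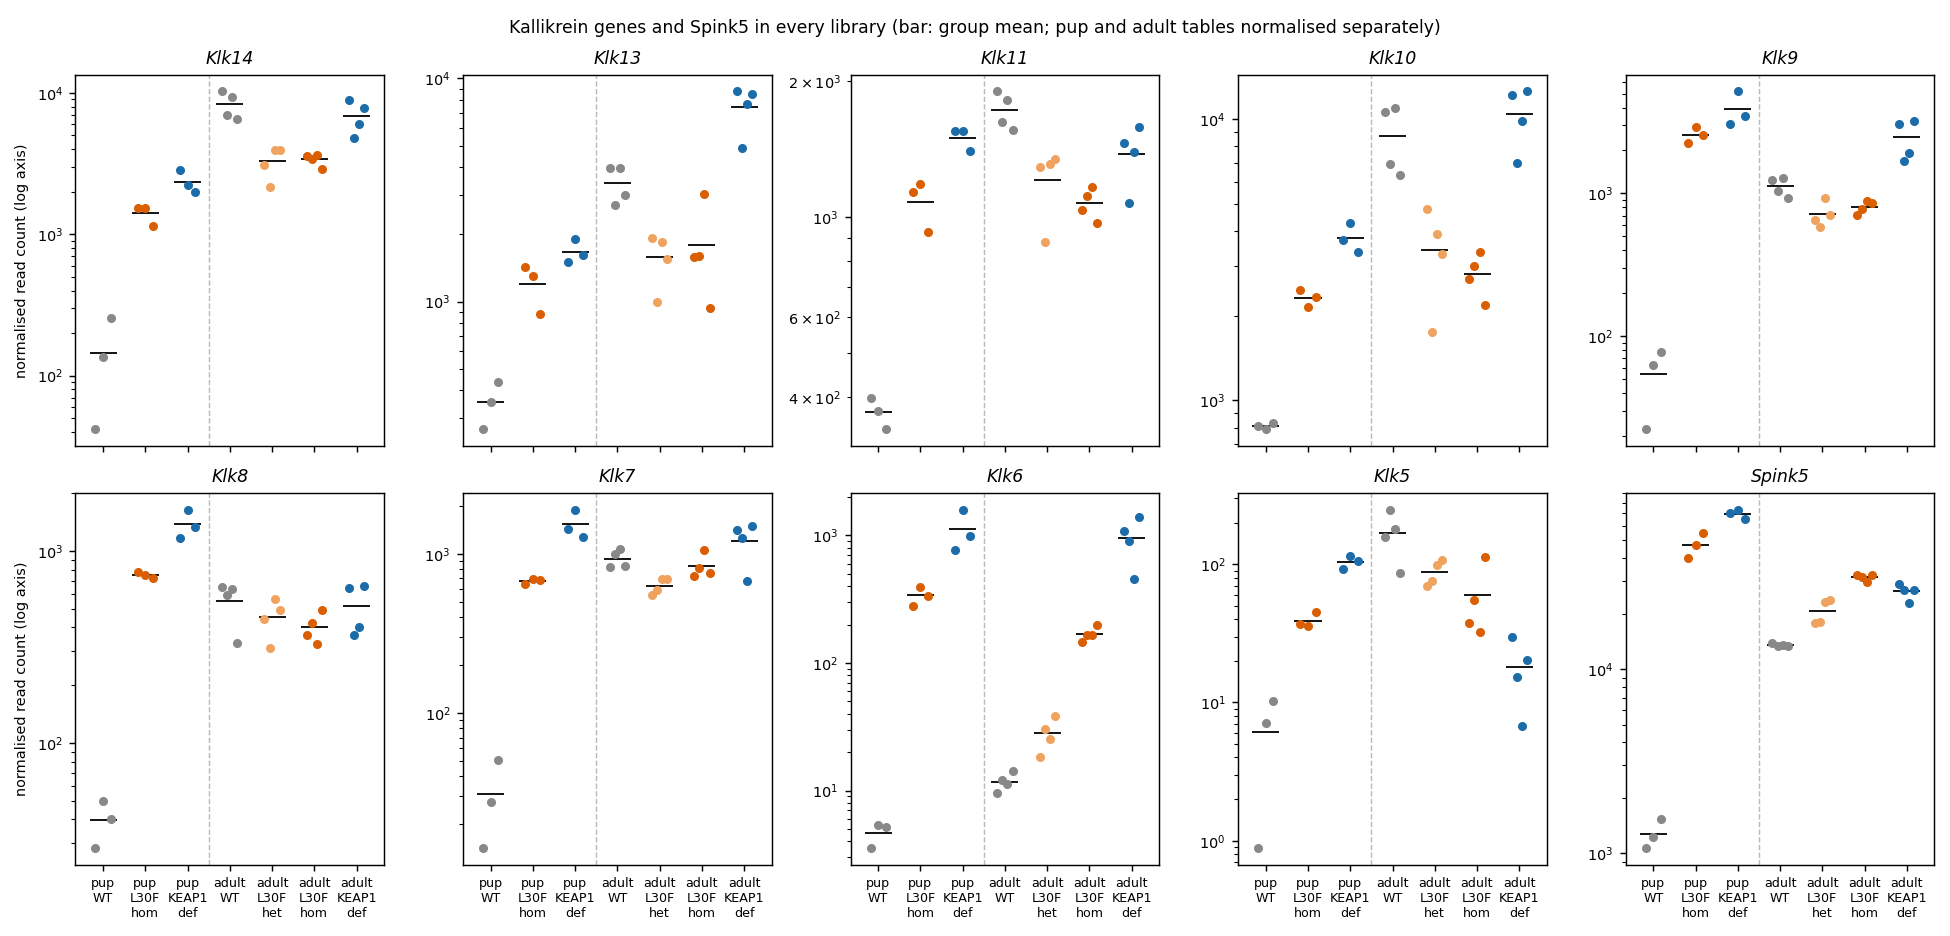
Normalised read counts of the 9 kallikrein genes, in cluster order, and of Spink5 in each of the 25 libraries (log axis, 1 point per library, bar at the group mean); WT is wild type, het heterozygote, hom homozygote and def deficient. In pups every mutant library lies above every wild-type library for all 10 genes, and in adults the genes part, with Klk6 at 9.5 to 14.1 in wild type and 453.6 to 1390.8 in KEAP1-deficient libraries while Klk5 falls to 6.8 to 29.9.

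The inhibitor and all 9 proteases rose in L30F homozygous pups. Spink5 had 1071.8, 1229.2 and 1532.5 counts in wild-type pups and 40062.3, 47205.8 and 54948.6 in homozygotes. This is a 37.2-fold rise (log2 fold change 5.22, SE 0.14, adjusted p = 3.9e-09). Every homozygous library lay above every wild-type library. Of the members, 10 were called higher and 0 lower, while 22.0% of the 21007 genes tested were called higher and 17.1% lower. All 10 had groups that did not overlap, against 27.0% of genes tested with all mutant libraries above all wild-type libraries. The median log2 change of the members was 3.93, and that of all genes tested -0.03.

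Among the proteases that LEKTI inhibits, Klk7 had 14.2, 27.6 and 50.5 counts in wild type and 646.5, 693.9 and 686.2 in homozygous pups (log2 fold change 4.58, SE 0.38, adjusted p = 2.7e-05). The mutant libraries were close to each other, whereas the wild-type libraries were spread widely. Klk14 had 41.8, 135.2 and 255.8 in wild type and 1533.2, 1542.6 and 1144.9 in homozygotes (3.61, SE 0.60, adjusted p = 0.0029). Klk5, the activator of the cascade, was scarce: 0.9, 7.1 and 10.3 in wild type and 36.9, 35.5 and 45.1 in homozygotes (2.84, SE 0.55, adjusted p = 0.0029). In all 3 genes wild-type library 1 was the lowest. Without it the log2 change of Klk5 was 2.06 and that of Klk14 2.90, both still called (adjusted p = 0.00024 and 0.00015).

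The other 6 kallikreins fell into a group with steep rises and a group with moderate ones. Klk6, hardly expressed in wild type with 3.6, 5.3 and 5.1 counts, reached 281.9, 397.2 and 334.9 in homozygotes, 59.8-fold higher (adjusted p = 6.7e-08). Klk9 rose 52.3-fold (adjusted p = 4e-05), from 22.3, 63.1 and 77.9 to 2248.5, 2914.7 and 2569.5. Klk8 rose 19.0-fold to 749.7 ± 30.0 (SD, n = 3; adjusted p = 8.7e-08). Those 3 genes and Klk7 are neighbours in the cluster. Klk10, Klk11 and Klk13 already stood at 811.7 ± 20.2, 369.8 ± 29.2 and 353.9 ± 85.1 in wild type (SD, n = 3), and rose 2.85-fold, 2.91-fold and 3.38-fold (adjusted p = 6.1e-07, 1.6e-06 and 0.00023).

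KEAP1-deficient pups showed a rise of all 10 genes as well. This comparison shares its wild-type libraries with the previous one. Of all genes tested, 26.3% were called higher and 23.2% lower, against 10 and 0 of the members, and 30.3% had KEAP1-deficient libraries all above the wild type, as all 10 members did. The median log2 change of the members was 4.73, against -0.05 for all genes. Spink5 had 70460.1, 73107.0 and 65609.3 counts (55.1-fold over wild type, adjusted p = 1.4e-09). Klk6 had 774.4, 1582.4 and 987.0 (log2 fold change 7.57, SE 0.26, adjusted p = 7.9e-09), the largest change of any member in any comparison with wild type. Its second library, the one with stomach markers, was the highest.

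Klk7, Klk14 and Klk5 rose in KEAP1-deficient pups too. Klk7 had 1424.0, 1882.5 and 1281.8 counts, 53.5-fold over wild type (adjusted p = 4.4e-06). Klk14 had 2834.3, 2230.1 and 1981.7, a 20.3-fold rise (adjusted p = 0.00081). Klk5 had 91.7, 114.0 and 105.8, an 18.7-fold rise (adjusted p = 0.00017). None of the KEAP1-deficient libraries was near the wild-type range of these genes, and without wild-type library 1 the log2 changes of Klk14 and Klk5 were 3.63 and 3.45. Klk9 rose 77.7-fold, Klk8 34.6-fold, Klk13 4.78-fold, Klk10 4.64-fold and Klk11 4.05-fold, with adjusted p-values from 1.7e-08 for Klk8 to 3e-05 for Klk13.

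Cell type markers moved with these rises. The summed counts of 8 markers of differentiated squamous cells were 119203 to 126046 in wild-type pups, 207292 to 238825 in homozygotes and 291373 to 318606 in KEAP1-deficient pups. Those of 6 basal markers were 23696 to 40330.1, 66494 to 75118 and 73656 to 90713. Those of 5 fibroblast markers fell from 272869.8 to 288902 in wild type to 85540.5 to 128052 in homozygotes and 56784 to 110301 in KEAP1-deficient pups. Their part in the rise of the members was not tested.

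All 10 members had lower values in each homozygous pup library than in each KEAP1-deficient one, but the test called only 4 of them. None was called higher. By direction, 2.4% of genes tested were called lower in homozygotes and 1.76% higher, and 16.7% had homozygous libraries all below the KEAP1-deficient ones. The called genes were Klk6 (338.0 ± 57.7 against 1114.6 ± 418.8, SD, n = 3; log2 difference -1.67, adjusted p = 0.02), Klk10 (-0.70, adjusted p = 0.01), Klk8 (-0.87, adjusted p = 0.04) and Klk11 (-0.48, adjusted p = 0.039). Spink5 missed the threshold (-0.57, SE 0.14, adjusted p = 0.055), and so did Klk5 (-1.39, adjusted p = 0.17), Klk7 (-1.16, 0.12), Klk13 (-0.50, 0.21), Klk14 (-0.74, 0.52) and Klk9 (-0.57, 0.5). Leaving out any 1 of the 6 libraries compared ended the calls of Klk8 and Klk11, and leaving out homozygote 1, homozygote 2 or KEAP1-deficient 2 ended that of Klk6, so that 1 to 3 calls were left. With limma-voom on the reads 7 members were called lower, and of all 21007 genes tested 610 were lower and 309 higher.

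**Figure D2:**
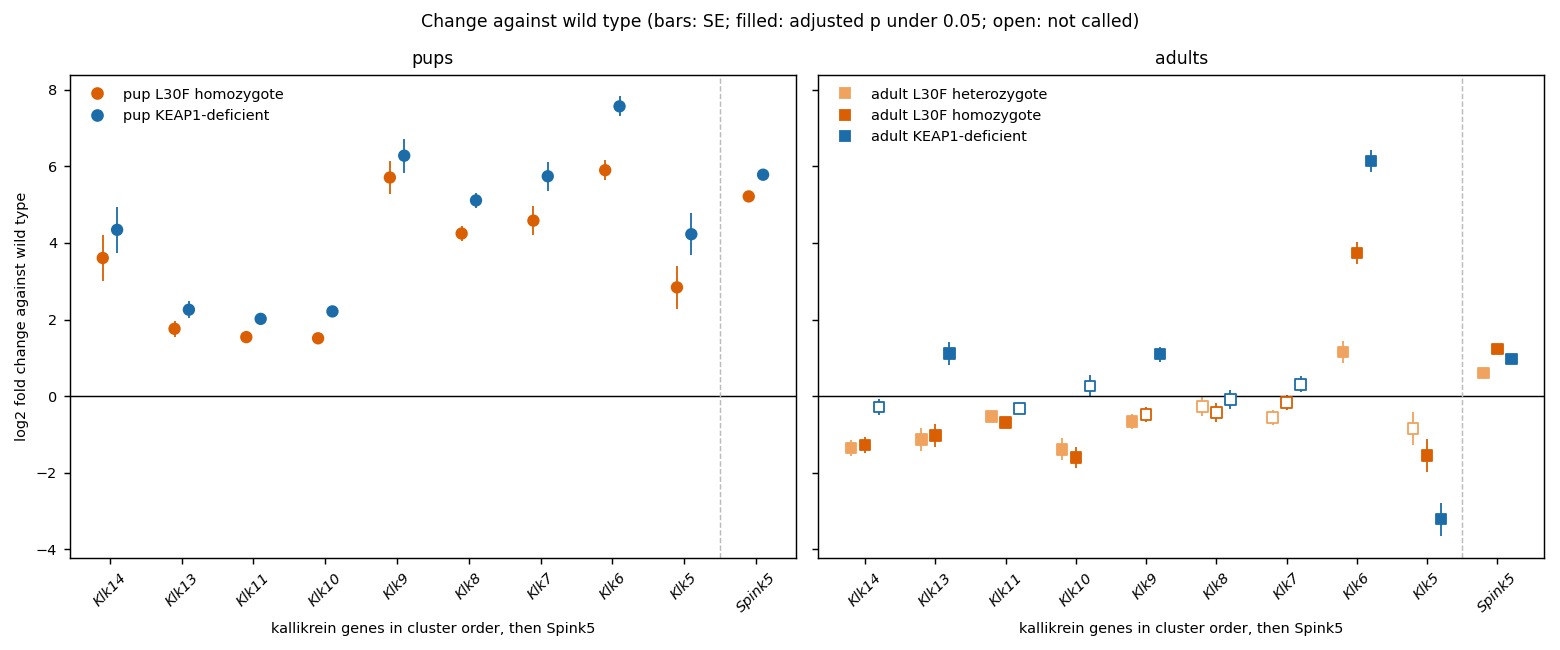
Log2 fold change against wild type of the same age (y axis) for the kallikrein genes in cluster order and Spink5 (x axis), with bars of 1 SE; filled symbols were called and open symbols were not. All 20 pup values lie above 0, whereas among the adult values those of Klk6 and Spink5 alone were called higher in all 3 mutant groups.

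In adults, 1 week after tamoxifen, the inhibitor and the proteases parted in L30F homozygotes. Spink5 had 13817.2, 13304.9, 13460.8 and 13357.6 counts in wild type and 32512.9, 31693.9, 29843.0 and 32386.9 in homozygotes, 2.34-fold higher (log2 change 1.23, SE 0.10, adjusted p = 4e-07). The groups were tight and far apart. Klk6 rose 13.4-fold, from 9.5, 12.2, 11.2 and 14.1 to 146.7, 164.2, 166.6 and 197.0 (3.74, SE 0.28, adjusted p = 2.4e-07). Of the members, 2 were called higher and 5 lower, with 11.8% and 10.4% of the 19857 genes tested called in those directions.

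The 5 that fell in adult homozygotes were Klk14, Klk10, Klk13, Klk11 and Klk5. Klk14 had 10242.9, 6986.6, 9352.2 and 6559.3 counts in wild type and 3596.8, 3414.2, 3627.1 and 2897.7 in homozygotes, 2.41-fold lower (adjusted p = 0.00087). No homozygous library reached the lowest wild-type library. Klk10 fell 3.03-fold, from 10606.5, 6922.0, 10933.5 and 6355.5 to 2705.5, 3017.8, 3381.1 and 2177.6 (adjusted p = 0.0014), and Klk11 1.60-fold (adjusted p = 0.0025). Klk13 fell 2.04-fold (adjusted p = 0.026) and Klk5 2.94-fold (adjusted p = 0.018), but in both the groups overlapped. For Klk5 the values were 157.1, 246.9, 179.2 and 86.0 in wild type and 37.9, 54.7, 32.1 and 113.3 in homozygotes. Its call ended without wild-type library 2, homozygote 1 or homozygote 3 (adjusted p = 0.06, 0.054 and 0.054), and that of Klk13 without any 1 of wild-type 1 or 3 or homozygote 1, 2 or 4 (adjusted p from 0.05 to 0.075).

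Not called in adult homozygotes were Klk7 (838.2 ± 150.4 against 932.9 ± 122.4, SD, n = 4; adjusted p = 0.61), Klk8 (402.3 ± 72.1 against 551.1 ± 147.7; 0.24) and Klk9 (804.5 ± 82.4 against 1124.4 ± 169.3; 0.091). The 4 homozygous libraries of Klk9 nevertheless lay below all wild-type libraries. Over the members, 6 had groups that did not overlap, 2 higher and 4 lower, while 12.7% of genes tested did so upwards and 12.1% downwards. The summed counts of the differentiated squamous markers were 933387 to 1313799 in wild type and 460826 to 678475 in homozygotes. Those of the basal markers were 58850.3 to 74369 and 84429 to 129526, and those of leukocyte markers 3708 to 6488 and 6557 to 14380.0. The part of these in the changes was not tested.

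In adult heterozygotes, with 1 copy of L30F, Spink5 and Klk6 rose and 5 kallikreins fell. The wild-type libraries are shared with the other adult comparisons. Of genes tested, 4.8% were called higher and 4.9% lower, against 2 and 5 of the 10 members. Spink5 rose to 17725.9, 17942.3, 23232.4 and 23674.7 counts, 1.52-fold over wild type (adjusted p = 0.0018). Klk6 had 18.3, 30.1, 25.4 and 38.5, 2.23-fold higher (adjusted p = 0.019), and no heterozygous library overlapped the wild type in either gene. Klk14 had 3083.9, 2143.6, 3962.6 and 3958.2, 2.55-fold lower than wild type (adjusted p = 0.0018). Klk10 fell 2.62-fold to 4790.9, 1749.6, 3901.0 and 3325.5 (adjusted p = 0.009), Klk13 2.19-fold (adjusted p = 0.033), Klk9 1.58-fold (adjusted p = 0.043) and Klk11 1.44-fold (adjusted p = 0.024).

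Klk5 (88.2 ± 18.5 in heterozygotes, SD, n = 4; log2 fold change -0.84, adjusted p = 0.24), Klk7 (630.7 ± 74.5; -0.56, 0.092) and Klk8 (452.4 ± 106.8; -0.27, 0.54) were not called in heterozygotes. In 8 members the heterozygous and wild-type libraries did not overlap, 2 upwards and 6 downwards, against 7.72% and 6.77% of genes tested. Striated muscle markers were higher in heterozygotes, with summed counts of 265287 to 389481 against 202492 to 233126 in wild type. The differentiated squamous markers were lower without overlap, at 578754 to 889478 against 933387 to 1313799, and their part in the falls was not tested. A covariate of the striated muscle markers (their mean log2(count + 1) per library) was added in limma, and no member was then called. Spink5 had 0.57 (adjusted p = 0.12) and Klk14 -1.34 (adjusted p = 0.11), against 0.60 and -1.35 without it. At an unadjusted p under 0.05, 1 member was higher and 7 lower. Over all 19857 genes tested the covariate left 83 called higher and 33 lower. Leaving out single libraries left 1 to 2 members called higher and 2 to 5 lower, as the call of Klk9 ended without any 1 of wild-type 1, 2 or 3 or heterozygote 1, 2 or 4. That of Klk13 ended without wild-type 1 or 3 or heterozygote 2 or 4, and those of Klk11 and Klk6 without wild-type 1 or 3. With limma-voom on the reads Klk6 (1.19, adjusted p = 0.36) and Klk9 (-0.66, adjusted p = 0.054) were not called.

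Between the L30F genotypes of adults, 2 members differed by the test, Klk6 and Spink5. Klk6 was 6.00-fold higher in homozygotes than in heterozygotes (log2 difference 2.58, SE 0.28, adjusted p = 4.8e-05). Spink5 was 1.54-fold higher (0.63, SE 0.10, adjusted p = 0.00076). Neither gene had overlapping groups, and nor had Klk7 (upwards, as 7.57% of genes tested). These 2 were called higher and 0 lower, and 0 were lower at an unadjusted p under 0.05 or with limma-voom, where 8.07% of genes tested were called higher and 8.29% lower. For Klk14 the means were 3384.0 ± 337.5 and 3287.1 ± 867.1 (SD, n = 4; difference 0.08, adjusted p = 0.84), and for Klk10 2820.5 ± 509.8 and 3441.8 ± 1279.1 (-0.21, adjusted p = 0.65). Against the midpoint of wild type and homozygotes on the log2 scale, Spink5 in heterozygotes lay at -0.01 (SE 0.08, adjusted p = 0.94). Klk14 lay below the midpoint by -0.71 (SE 0.19, adjusted p = 0.027), the single member called there, with 3.95% of genes tested called lower and 5.03% higher. That call of Klk14 ended without wild-type library 1, heterozygote 1 or heterozygote 2 (adjusted p = 0.053, 0.069 and 0.081).

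In KEAP1-deficient adults 4 members rose and Klk5 fell. Klk6 reached 1091.2, 901.0, 453.6 and 1390.8 counts, 70.3-fold over wild type (log2 fold change 6.14, SE 0.28, adjusted p = 3e-10). Spink5 had 29158.0, 27017.1, 22928.4 and 26946.0, 1.96-fold higher (0.97, SE 0.10, adjusted p = 9e-07). Klk9 and Klk13 were the other members that rose. Klk9 had 3086.7, 1697.3, 1925.4 and 3196.3 against 1241.6, 1041.1, 1287.3 and 927.6 in wild type (2.14-fold, adjusted p = 0.00025). Klk13 had 8741.3, 4877.1, 7669.7 and 8517.0 against 3948.9, 2708.1, 3953.3 and 2992.4 (2.17-fold, adjusted p = 0.0077). In all 4 genes the groups did not overlap.

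Klk5 went the other way in KEAP1-deficient adults, with 29.9, 15.2, 6.8 and 20.4 counts, 9.28-fold lower than wild type (log2 fold change -3.21, SE 0.43, adjusted p = 1.9e-05). All 4 libraries lay below the lowest wild-type library. The test thus called 4 members higher and 1 lower, and 24.1% and 22.7% of genes tested. The groups of those 5 members did not overlap, against 25.9% of genes upwards and 24.2% downwards. Not called were Klk10 (10410.2 ± 2561.3 against 8704.4 ± 2400.1, SD, n = 4; adjusted p = 0.48), Klk14 (6868.6 ± 1808.7 against 8285.2 ± 1792.2; 0.3), Klk8 (516.9 ± 153.5 against 551.1 ± 147.7; 0.79), Klk11 (1378.8 ± 216.6 against 1722.2 ± 160.5; 0.056) and Klk7 (1201.9 ± 366.4 against 932.9 ± 122.4; 0.23). KEAP1-deficient library 3 was the lowest for Klk6, Klk7, Klk5 and Spink5. Without it Klk7 was called higher (0.57, adjusted p = 0.0034), and Klk11 was called lower without wild-type library 4 (-0.38, adjusted p = 0.049) or KEAP1-deficient library 4 (-0.40, adjusted p = 0.035).

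Tissue markers also separated the KEAP1-deficient adults. The differentiated squamous markers summed to 109017 to 158382, against 933387 to 1313799 in wild type, and the basal markers to 183675 to 213748, against 58850.3 to 74369. Striated muscle markers summed to 74206 to 106781, against 202492 to 233126, so muscle content and genotype cannot be told apart in this comparison. Leukocyte markers summed to 11315 to 15338, against 3708 to 6488, and fibroblast markers to 153664 to 205871, against 75579 to 90020.5. With the muscle covariate, 433 of the 19857 genes tested were called higher and 363 lower. Of the members Klk6 alone was called with it (7.29, SE 0.78, adjusted p = 0.0004). Spink5 then had 1.04 (adjusted p = 0.058), Klk9 1.48 (adjusted p = 0.17), Klk13 0.77 (adjusted p = 0.69) and Klk5 -1.30 (adjusted p = 0.58).

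The L30F and KEAP1-deficient adults were also compared with each other. Against KEAP1-deficient adults, homozygotes had 1 member called higher and 5 lower (12.9% and 13.5% of genes tested). Klk13 was 4.43-fold lower (adjusted p = 0.00015), Klk10 3.64-fold (adjusted p = 0.00026), Klk6 5.27-fold (adjusted p = 2e-05), Klk9 2.97-fold (adjusted p = 3.5e-05) and Klk14 1.98-fold (adjusted p = 0.0033), while Klk5 was 3.15-fold higher (adjusted p = 0.01). Spink5 did not pass (0.26, adjusted p = 0.062). Klk7 (-0.47, adjusted p = 0.1), Klk11 (-0.35, 0.068) and Klk8 (-0.33, 0.36) were not called either. Of the members 7 did not overlap, 2 upwards and 5 downwards, against 14.1% and 15.7% of genes tested.

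Heterozygotes set against KEAP1-deficient adults had 1 member called higher and 7 lower (21.6% and 23.2% of genes tested). Klk5 was 5.17-fold higher (adjusted p = 0.00034). Klk6 was 31.6-fold lower (adjusted p = 4.9e-09), Klk13 4.74-fold, Klk9 3.38-fold, Klk10 3.14-fold, Klk14 2.09-fold, Klk7 1.83-fold and Spink5 1.29-fold (adjusted p = 0.0056). Klk8 (-0.18, adjusted p = 0.6) and Klk11 (-0.20, adjusted p = 0.25) were not called. Groups did not overlap in 6 members, 1 upwards and 5 downwards, against 20.2% and 21.2% of genes tested. With the muscle covariate no member was called between KEAP1-deficient adults and either L30F group. Of all 19857 genes tested it left 3 called for homozygotes and 0 for heterozygotes, against 5248 and 8891 without it. At an unadjusted p under 0.05, 3 members were lower for homozygotes and 2 for heterozygotes. The value of Klk5 changed sign, to -0.38 (SE 1.26, adjusted p = 0.95) for homozygotes and -0.27 (SE 1.59, adjusted p = 0.97) for heterozygotes. The other lower members kept their direction with larger errors. Klk6 had -3.63 (SE 0.83, adjusted p = 0.16) and -6.58 (SE 1.05, adjusted p = 0.051), against -2.40 and -4.98 (SE 0.28 each) without the covariate. Klk9 had -1.98 and -2.28, Klk10 -2.21 and -2.10, and Klk13 -1.78 and -1.77, where the values without it were -1.57 and -1.76, -1.86 and -1.65, and -2.15 and -2.25.

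Ordered by mean level in adults, Klk6 ran KEAP1-deficient, homozygous, heterozygous, wild type, and each step was called. With limma-voom the step of Klk6 from heterozygous to wild type was not called (1.19, SE 0.80, adjusted p = 0.36). For Spink5 the order was homozygous, KEAP1-deficient, heterozygous, wild type, and the first step alone was not called. Klk5 ran wild type, heterozygous, homozygous, KEAP1-deficient, with the last step alone called. For Klk7, Klk8 and Klk11 no step was called. In Klk9 the step from KEAP1-deficient to wild type was the one called, in Klk10 the step from wild type to heterozygous, and in Klk14 the step from KEAP1-deficient to homozygous. For Klk13 the steps from KEAP1-deficient to wild type and from wild type to homozygous were called. In pups the order was KEAP1-deficient, homozygous, wild type for every member.

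**Figure D3:**
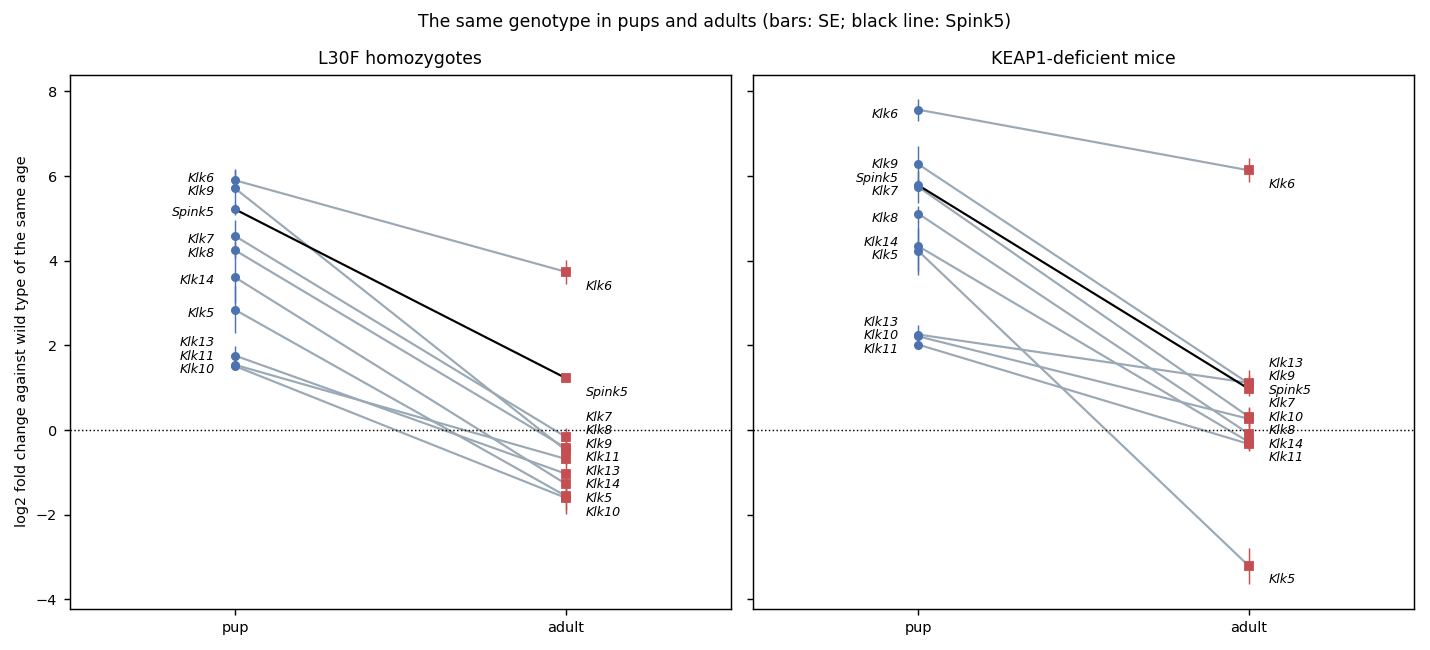
Log2 fold change against wild type of the same age (y axis, bars of 1 SE) in pups and adults (x axis), joined per gene, for L30F homozygotes on the left and KEAP1-deficient mice on the right; the black line is Spink5. Every line falls, least for Klk6 on the left (-2.16) and for Klk13 on the right (-1.14).

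The effect of each genotype was smaller, or turned round, in adults for every member. For L30F homozygotes the adult effect minus the pup effect was called negative in all 10 members, and in 19.9% of the 19031 genes tested at both ages, with 13.6% called positive. The difference was -6.18 for Klk9 (SE 0.48, adjusted p = 2e-06), -3.99 for Spink5 (SE 0.17, adjusted p = 1.3e-12) and -2.16 for Klk6 (SE 0.38, adjusted p = 6.8e-05). Klk14, Klk10, Klk13, Klk11 and Klk5 were called higher in homozygous pups and lower in homozygous adults, and their differences ran from -2.22 (Klk11) to -4.88 (Klk14). Klk7 and Klk8, with differences of -4.75 and -4.67, rose in pups and were not called in adults.

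For KEAP1 deficiency all 10 differences were called negative as well, as in 26.5% of genes tested, with 20.6% called positive. Klk5, which rose in pups and fell in adults, had the largest, -7.44 (SE 0.70, adjusted p = 2.3e-08). The smallest were those of Klk13 (-1.14, SE 0.38, adjusted p = 0.015) and Klk6 (-1.43, SE 0.38, adjusted p = 0.003). With limma-voom on the reads neither difference of Klk6 was called (adjusted p = 0.19 and 0.34), and with the muscle covariate those of Klk6, Klk10 and Klk13 for KEAP1 deficiency were not (-0.22, -1.62 and -1.47, adjusted p = 0.9, 0.25 and 0.35). Without wild-type pup library 1 the differences of Klk5 and Klk14 were -3.62 and -4.17 for homozygotes and -6.66 and -3.92 for KEAP1 deficiency. Age, the Cre line and tamoxifen differ together between the experiments and cannot be told apart.

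The balance of inhibitor and protease transcripts was described by the log2 ratio of the counts of Spink5 to those of Klk5, Klk7 and Klk14. To each count 1 was added before the ratio was taken, which lowers the ratio where a protease is scarce. The ratio carries the unequal lengths of the transcripts and is read only between groups. In adults the ratio to Klk14 was 0.43 to 1.03 in wild type, 2.52 to 3.06 in heterozygotes, 3.04 to 3.48 in homozygotes and 1.71 to 2.48 in KEAP1-deficient libraries. The 3 mutant groups lay above the wild type. The ratio to Klk5 was 5.75 to 7.26, 7.76 to 7.98, 8.15 to 9.82 and 9.88 to 11.53 in the same order, so here the KEAP1-deficient libraries were the highest. The ratio to Klk7 was 3.64 to 4.07, 4.93 to 5.10, 4.82 to 5.49 and 4.18 to 5.09. In each adult mutant library Spink5 was thus higher relative to each of these 3 proteases than in any adult wild-type library. No ratio was taken to the other kallikreins, of which Klk6 rose more than Spink5 in KEAP1-deficient adults (log2 changes of 6.14 and 0.97).

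In pups the ratios overlapped more. The ratio to Klk14 was 2.58 to 4.65 in wild type, 4.71 to 5.58 in homozygotes and 4.64 to 5.05 in KEAP1-deficient libraries, of which the lowest fell within the wild-type range. The ratio to Klk7 was 4.90 to 6.14 in wild type, 5.95 to 6.32 in homozygotes and 5.28 to 5.68 in KEAP1-deficient libraries, so that the homozygotes overlapped the wild-type range and the KEAP1-deficient libraries lay inside it. For Klk5, scarce in wild-type pups, the ratio was 7.09 to 9.15, 10.05 to 10.34 and 9.26 to 9.57. The value of 9.15 is that of wild-type library 1, with 1 read of Klk5 (0.89 counts), and the added 1 lowers it strongly. The separation of the mutant groups from this library thus depends on the added 1. Wild-type pup library 1, lowest in all 3 proteases, had the highest ratio of its group in each.

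**Figure D4:**
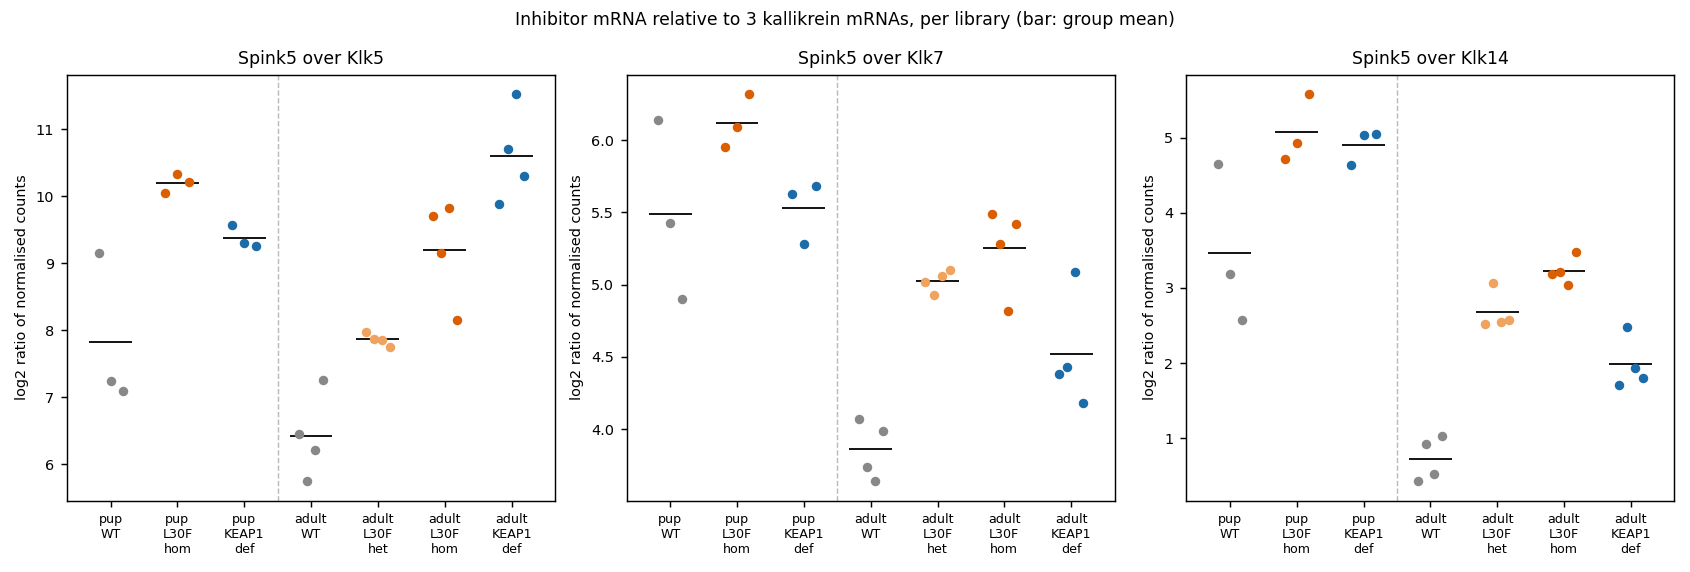
Log2 ratio of the normalised counts of Spink5 to those of Klk5, Klk7 and Klk14, with 1 added to each count (y axes, 1 panel per protease), in each library by group (x axis, bar at the group mean; het heterozygote, hom homozygote, def deficient). In adults all mutant libraries lie above the wild-type libraries in each panel, by the widest margin for Klk5 in KEAP1-deficient libraries (9.88 to 11.53 against 5.75 to 7.26).

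Other genes of the pathway were taken from lists chosen by function. Their counts stand beside the shares of all genes called higher and lower against wild type, which were 22.0% and 17.1% in homozygous pups, 26.3% and 23.2% in KEAP1-deficient pups, 4.8% and 4.9% in adult heterozygotes, 11.8% and 10.4% in adult homozygotes, and 24.1% and 22.7% in KEAP1-deficient adults. Of 17 other kallikreins of the mouse cluster 2 were tested, Klk12, which lies inside the member cluster, and Klk1b26, whose counts are uncertain because the Klk1b genes are near-identical copies. Klk12 was called higher in homozygous pups (251.0 ± 28.9 against 25.4 ± 9.48, SD, n = 3; adjusted p = 3.4e-06) and in KEAP1-deficient pups (369.4 ± 31.2; adjusted p = 7.4e-07). In adults it was lower in heterozygotes (174.4 ± 30.6 against 323.5 ± 48.1, SD, n = 4; adjusted p = 0.012) and higher in KEAP1-deficient mice (715.9 ± 194.4; adjusted p = 0.00023). In these 4 comparisons Klk9 and Klk13 were called in the same directions as Klk12. In adult homozygotes Klk12 (-0.56, adjusted p = 0.051) and Klk9 (adjusted p = 0.091) were not called, while Klk13 was called lower (adjusted p = 0.026).

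Of 11 other Kazal-type inhibitors 4 were tested, and 3 of these were called higher in each of the 5 comparisons with wild type, with 1 lower in KEAP1-deficient pups. The median log2 change was 2.81 and 3.62 in homozygous and KEAP1-deficient pups (2.36 and 3.16 with Spink6, at 0 in all wild-type pups, set there to 3 reads over the group) and 1.98, 2.63 and 2.86 in adult heterozygotes, homozygotes and KEAP1-deficient mice. The medians of all genes tested were -0.03, -0.05, 0.01, -0.01 and -0.01. Spink12 had 1.10 ± 0.79 counts in adult wild type and 9.64 ± 6.51, 26.5 ± 15.9 and 119.5 ± 50.3 in heterozygotes, homozygotes and KEAP1-deficient adults (SD, n = 4; adjusted p = 0.017, 0.00034 and 4.3e-07). Spink7 and Spink12 were called higher in all 5 comparisons by limma. With limma-voom Spink7 was not called in homozygous pups (adjusted p = 0.068), and neither was called in adult heterozygotes (adjusted p = 0.051 and 0.17). With the muscle covariate neither was called in heterozygotes (adjusted p = 0.32 and 0.1) or in KEAP1-deficient adults (adjusted p = 0.071 and 0.19).

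The list of 12 other inhibitors of epithelial proteases had 7 of 11 tested members called higher and 0 lower in homozygous pups, and 9 higher and 1 lower in KEAP1-deficient pups. In adult heterozygotes, homozygotes and KEAP1-deficient mice 3, 4 and 2 of 12 were higher and 4, 4 and 2 lower, those of KEAP1-deficient adults being smaller shares than the 24.1% and 22.7% of all genes. Slpi, a secreted inhibitor of leukocyte elastase, had 393.3 ± 283.7 counts in wild-type pups and 58428.4 ± 6566.0 in homozygotes (SD, n = 3; adjusted p = 0.00011), and it was not called in any adult group. Serpina12 (vaspin), a serpin that inhibits KLK7, had 8.67 ± 7.37 in wild-type pups and 548.1 ± 272.4 in homozygotes (SD, n = 3; adjusted p = 0.00011). In adults Serpina12 rose from 20.8 ± 19.1 to 376.0 ± 147.6 in heterozygotes and 571.6 ± 200.6 in homozygotes (SD, n = 4; adjusted p = 0.00012 and 1.2e-05), with 39.6 ± 15.8 in KEAP1-deficient mice, where it was not called. Wfdc5, a WAP-domain protein, fell 1.81-fold in adult homozygotes and 1.63-fold in KEAP1-deficient adults.

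Proteases anchored to or acting at epithelial surfaces include activators of kallikreins. Of the 14 in the list 13 were tested, and 7 were called higher and 3 lower in both pup comparisons. In adults 0, 1 and 6 were higher and 2, 3 and 2 lower in heterozygotes, homozygotes and KEAP1-deficient mice. The 1 higher in homozygotes and the 2 lower in KEAP1-deficient adults are smaller shares than the 11.8% and 22.7% of all genes. Tmprss13 rose 10.1-fold in homozygous pups (adjusted p = 4.4e-10), and Tmprss11g fell 14.0-fold there (adjusted p = 0.00028). Tmprss11g went the opposite way in KEAP1-deficient adults, 10.7-fold higher (adjusted p = 2.9e-05). Prss27, a membrane-anchored serine protease, fell 2.47-fold in adult heterozygotes and 2.67-fold in homozygotes (adjusted p = 0.017 and 0.0047). It rose 1.79-fold in KEAP1-deficient adults (adjusted p = 0.036), and 2.21-fold and 3.39-fold in homozygous and KEAP1-deficient pups (adjusted p = 0.00022 and 7.1e-06).

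The next list held proteins that kallikreins cut in skin and genes downstream of them. Of 10 genes 8 were tested in pups, and 6 were higher and 1 lower in homozygotes (22.0% and 17.1% of all genes), 5 higher and 0 lower in KEAP1-deficient pups (26.3% and 23.2% of all genes), with medians of 3.94 and 4.48. Cdsn, which encodes corneodesmosin, had 277.6 ± 152.1 counts in wild-type pups, 15657.3 ± 858.9 in homozygotes and 22593.6 ± 3047.6 in KEAP1-deficient pups (SD, n = 3; adjusted p = 7e-06 and 3e-06). Dsc1, a desmosomal cadherin of the upper layers, rose 151-fold and 253-fold. In adult heterozygotes and homozygotes limma and limma-voom called 0 of 10, at medians of -0.12 and -0.15, and 0 and 3 passed an unadjusted p under 0.05. In KEAP1-deficient adults 1 was higher and 5 lower: Dsc1 fell 3.74-fold (adjusted p = 9.7e-08) and Flg, the filaggrin gene, 41.9-fold (adjusted p = 0.00035), whereas the cytokine gene Il1b rose from 19.4 ± 22.6 to 1277.4 ± 742.2 (SD, n = 4; adjusted p = 8e-07). The leukocyte markers given above were higher there too. With the muscle covariate 0 of the 10 were called in KEAP1-deficient adults, with 2 higher and 2 lower at an unadjusted p under 0.05. Of all 19857 genes tested, 433 were called higher and 363 lower with it. Dsc1 then had a log2 change of -1.71 (adjusted p = 0.052, against -1.90 without it), Flg -2.21 (0.69, against -5.39) and Il1b 4.61 (0.16, against 6.32).

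Among 7 other proteases of cornifying epithelium, 5 were higher and 1 lower in homozygous pups, and 5 higher and 0 lower in KEAP1-deficient pups. In adult heterozygotes, homozygotes and KEAP1-deficient mice 0, 1 and 4 were higher and 1, 1 and 2 lower. In homozygotes 1 of 7 in each direction is near the 11.8% and 10.4% of all genes, as are the 2 lower in KEAP1-deficient adults to 22.7%. Asprv1, an aspartic protease that processes profilaggrin, rose 7.30-fold and 10.9-fold in pups and fell 1.95-fold, 2.81-fold and 10.8-fold in the 3 adult groups (adjusted p = 0.027, 0.00088 and 5.6e-08). Casp14, a caspase of the cornified layer, rose 32.3-fold in homozygous pups (adjusted p = 3.3e-06) and fell 3.07-fold in KEAP1-deficient adults (adjusted p = 7.1e-07).

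The muscle covariate also ended calls in the other lists, as it did over all genes. Of the 19857 genes tested it left 83 higher and 33 lower in heterozygotes, and 433 higher and 363 lower in KEAP1-deficient adults. With it, 1 of the other inhibitors was higher and 0 lower in heterozygotes, and 0 and 0 in KEAP1-deficient adults. Of the surface proteases 0 and 0 were called in heterozygotes and 1 higher and 0 lower in KEAP1-deficient adults, and of the cornified proteases 0 and 0 and 1 and 1. Klk12 was called in neither group (log2 changes of -0.99 and 1.38, against -0.89 and 1.11 without it, adjusted p = 0.19 and 0.2), nor was Prss27 (-1.43 and 1.17, adjusted p = 0.24 and 0.52).

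Patterns most like those of 3 members were sought among 15560 genes with a mean of at least 20 counts at both ages, by the root mean square difference over the 5 log2 fold changes against wild type. These 5 values share 2 sets of wild-type libraries, and the measure is a description. Nearest to Spink5 were H60c (0.26), Fabp5 and Gjb2 (0.32 each), Ces1b and Abcc3 (0.41 each). Fabp5 encodes a fatty acid-binding protein of epidermis, Gjb2 a gap junction connexin and Abcc3 an exporter of conjugates. Nearest to Klk7 were Srms (0.22), Sdr9c7 (0.24), Nipal4 (0.27), Trex2 (0.32) and Rnf222 (0.35). Sdr9c7 and Nipal4 take part in making the lipid barrier of the skin. Klk6 had no close neighbour, with Sh2d5 (0.91), 2310046K23Rik (1.01), Rnf183 (1.03), Defb3 (1.08) and Sprr2h (1.11) the nearest.

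Exons of 2310002F09Rik overlap those of Klk8 and Klk14 on the opposite strand in the GENCODE annotation. The library kit marks strand, but whether the counting used it is not given in the sources used here. In pups 2310002F09Rik had 69.3 to 114.8 counts in wild type, 169.5 to 216.1 in homozygotes and 212.3 to 300.2 in KEAP1-deficient libraries, so the values of Klk8 and Klk14 can hold reads of it, most of all in wild-type pups.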

How the data were processed

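RNA-seq of 25 esophagus libraries was deposited as log2 values in a table for each experiment. Per the submitters' processing notes the authors used Salmon and the GRCm39 build; the sources used here give no version or setting. The lowest deposited value is 2, and the values equal log2(n + 4) with n the normalised read count, so n and whole reads were recovered (of values up to 1000 reads, 100% lie within 0.1 of an integer). The number of columns left unused is 0.

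Expression was tested with limma 3.58.1 (statmod 1.5.0, R 4.3.3; trend and robust options) on log2(n + 1), on genes reaching 1 count in at least the number of libraries of the smallest group. Each experiment had a single fit over its groups, with no term for the replicate number, and two-sided p-values were corrected by the Benjamini-Hochberg method across the 21007 genes tested in pups and 19857 in adults, with 0.05 as threshold. Adult and pup effects were compared by their difference over its standard error. Alternatives were offsets of 4 and 0.1, no filter, upper-quartile scaling, limma-voom, a striated muscle covariate, a replicate block, only the groups compared, and leaving out each library. Scripts were tested on simulated data.

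All 10 members are named, and of each other list at most the 3 called genes of largest change per comparison with wild type, with a mean of at least 20 counts. Nqo1, Keap1 and Nfe2l2 serve as checks, and the 5 genes nearest in pattern to each of 3 members are listed. The gene 2310002F09Rik was chosen after its values were seen. Members and lists were chosen with earlier results of these data known. Proteins were not analysed here.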

Additional observations from a re-analysis of the deposited data

Results flagged for a closer look

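Among 40 groups of 4 libraries tested, 1 had a library far from the others: Klk11 had 879.8 counts in adult heterozygote library 2, and 1287.9 to 1341.2 in the other 3. Chance sets apart about 1 in 20 groups.

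The effect of a genotype differed between ages for every member (adult minus pup, log2, difference over its standard error, adjusted over the 19031 genes tested at both ages). For L30F homozygotes the differences were -4.40 for Klk5, -2.16 for Klk6, -4.75 for Klk7, -4.67 for Klk8, -6.18 for Klk9, -3.11 for Klk10, -2.22 for Klk11, -2.79 for Klk13, -4.88 for Klk14 and -3.99 for Spink5. For KEAP1 deficiency they were -7.44 for Klk5, -1.43 for Klk6, -5.43 for Klk7, -5.21 for Klk8, -5.18 for Klk9, -1.95 for Klk10, -2.35 for Klk11, -1.14 for Klk13, -4.63 for Klk14 and -4.81 for Spink5. All 20 were called in each fit that left out 1 library.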

How the results depend on the processing

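Of 2020 settings applied to the 120 member results, 1914 kept the call (14 of these changed sign with neither value called), 78 lost a call, 26 gained one and 2 reversed; a change of sign counts as reversed where either value is called. Offsets of 4 and 0.1 and no filter changed none. The 2 reversals were those of Klk5 with the striated muscle covariate, -0.38 in adult homozygotes and -0.27 in heterozygotes, each against KEAP1-deficient adults. The cause of these and of the following changes was not tested.

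With limma-voom, 7 members were lower in homozygous than in KEAP1-deficient pups, 1 was higher in adult heterozygotes than in wild type, and 0 were higher in adult homozygotes than in KEAP1-deficient adults. With the muscle covariate, 0 were higher and 0 lower in heterozygotes against wild type, 1 higher and 0 lower in KEAP1-deficient adults against wild type, 0 higher and 0 lower in homozygotes or heterozygotes against KEAP1-deficient adults, and 0 lower than the midpoint. Over all genes tested the covariate left 116, 796, 3, 0 and 30 called in these comparisons, in that order. In KEAP1-deficient adults against wild type, 2 were lower with upper-quartile scaling, limma-voom, the replicate block or only the groups compared. In homozygotes against KEAP1-deficient adults, 2 were higher with upper-quartile scaling or only the groups compared. Over all genes tested, limma-voom on the recovered reads called 8483 in homozygous pups, 10315 in KEAP1-deficient pups, and 2124, 4247 and 10394 in adult heterozygotes, homozygotes and KEAP1-deficient mice against wild type, where limma called 8225, 10404, 1927, 4420 and 9290. Below the midpoint lay 2 with the replicate block and 3 with only the groups compared.

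Leaving out 1 library gave 1 to 3 members lower in homozygous than in KEAP1-deficient pups, 1 to 2 higher and 2 to 5 lower in heterozygotes, 3 to 5 lower in adult homozygotes, and 4 to 5 higher and 1 to 2 lower in KEAP1-deficient adults, each against wild type. For adult homozygotes against KEAP1-deficient adults it gave 1 to 2 higher and 5 to 6 lower, and for the midpoint 0 to 2 lower.

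Libraries with the same replicate number deviated together in 3 of 9 pairs in pups and 6 of 24 in adults (correlation over 0.1). Libraries with unlike numbers were not compared in this way, so these counts cannot tell whether the numbers pair libraries. With the replicate block 3 member calls were gained and 0 lost. Adult homozygotes had the fewest reads (10867765 to 11643385 per library), which limits low genes such as Klk5.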
